A study of Homo sapiens with 4 samples.

Results

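The enzymes of oxidative phosphorylation are built from subunits of 2 genomes, and the transcripts of both were examined in pancreatic cancer cells treated with cannabichromene (CBC), a phytocannabinoid of hemp. Members were chosen by name. They are the protein-coding genes of complexes I to V whose symbols begin with NDUFA, NDUFB, NDUFC, NDUFS, NDUFV, UQCR, COX4I, COX5, COX6, COX7, COX8, ATP5 or MT-, together with SDHA to SDHD and CYC1. The assembly factors, the ATP synthase inhibitor ATP5IF1 and the mitochondrial tRNA and rRNA genes were left out. This gave 103 genes, 90 of the nucleus and 13 of the mitochondrial genome, of 58233 gene identifiers and 19683 protein-coding genes in the deposited table.

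The data are 4 RNA sequencing libraries of poly(A)-selected mRNA, 1 from each of 4 cultures, 24 h after treatment. CBC was given at 35 μM to MIA PaCa-2 cells and at 30 μM to PANC-1 cells, and each line has 1 culture that received PBS in its place. Both are established lines of human pancreatic carcinoma, given as wild type (WT) in the sample records. The doses come from the study's methods and differ between the lines, and the methods speak of a vehicle control where the records say PBS. They also state that CBC was dissolved in acetonitrile. Whether the controls received that solvent is not given in the sources used here. If they did not, CBC cannot be told apart from its solvent in these comparisons. The libraries held 21742775 to 27903667 counts on genes. Each difference within a line compares 1 library with 1 library and has no replicate check, so it is given as a value, with a 95% exact (Clopper-Pearson) interval on the 2 counts that covers counting error only. Levels are given in CPM, counts scaled to a common library total, after TMM normalization of the 4 libraries. Within a line, genes with 1 CPM or more in either library were compared, and those whose log2 fold change passed 1 were called lower or higher. The only test with replication takes the 2 lines as replicates in a quasi-likelihood model of edgeR that holds the line as a block, and there a gene was called at an adjusted p under 0.05. The verbs rose and fell are kept for genes that passed it.

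Electrons from NADH enter the respiratory chain at complex I and those from succinate at complex II. They pass over ubiquinone to complex III, over cytochrome c to complex IV, and finally to oxygen. Complexes I, III and IV pump protons out of the matrix, and complex V, the ATP synthase, uses the returning protons to make ATP. Complex II is encoded wholly in the nucleus, while each of the others mixes nuclear subunits with a few that the mitochondrial genome encodes and the organelle's own ribosomes translate. The mitochondrial genome is read from both strands as long precursors that are cut, mostly at tRNAs, into single messages.

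Transcripts from both genomes were at lower levels after CBC, in both lines. In MIA PaCa-2 the 80 nuclear members tested had a median log2 fold change of -0.48 and the 13 mitochondrial members one of -0.60, beside -0.01 over all 14001 genes tested. In PANC-1 the 81 nuclear members had a median of -0.21 and the 13 mitochondrial members one of -0.91, beside 0.02 over all 14091 genes. The median of the mitochondrial members minus that of the nuclear members was thus -0.12 in MIA PaCa-2 and -0.70 in PANC-1 on the log2 scale. Over both lines 9 of the 13 mitochondrial members fell, and of 82 nuclear members tested 1 fell, ATP5MC3, which encodes the c subunit of the ATP synthase, where 2.45% of all genes tested fell. No member rose, and with no cell line block edgeR called none of them.

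Values below 0 were more frequent among members than among all genes. In MIA PaCa-2, 74 of 80 nuclear and all 13 mitochondrial members lay below 0, where 50.9% of all tested genes did. In PANC-1, 68 of 81 nuclear and all 13 mitochondrial members lay below 0, where 48.6% of all tested genes did. The decreases were mostly small. In MIA PaCa-2, 3 nuclear members and 1 mitochondrial member were called lower, when 8.97% of tested genes were, and none was called higher, when 11.5% of tested genes were, and 20.5% were called in either direction. In PANC-1, 1 nuclear and 5 mitochondrial members were called lower, when 7.03% of tested genes were, and 1 nuclear member was called higher, when 7.71% of tested genes were, and 14.7% were called in either direction. The share of nuclear members called was thus below that of all genes in each line, while their share below 0 was above it. Scaled by library totals, 58 of 81 nuclear members lay below 0 in PANC-1, beside 43.1% of all genes. In the test over both lines, 2.45% of the 16381 genes fell and 2.26% rose, 4.71% in all. The edgeR test had 1 residual degree of freedom, and at an unadjusted p under 0.05 it held 22 of the 82 nuclear members (26.8%) and all 13 mitochondrial members, beside 20.9% of all genes. The nuclear share was thus near that of all genes when both directions are counted together. These shares were not split by direction, and they need not be alike in it. In that fit 77 of the 82 nuclear members lay below 0, beside 48.6% of all genes.

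Nuclear members were mostly further down in MIA PaCa-2 and mitochondrial members in PANC-1. Of the 79 nuclear members tested in both lines, 67 had the lower value in MIA PaCa-2 and 12 in PANC-1. Of the 13 mitochondrial members, 2 had the lower value in MIA PaCa-2 and 11 in PANC-1. With 1 library per condition, the difference between the lines was not tested, and it cannot be told apart from the difference in dose or in cell death.

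**Figure D1:**
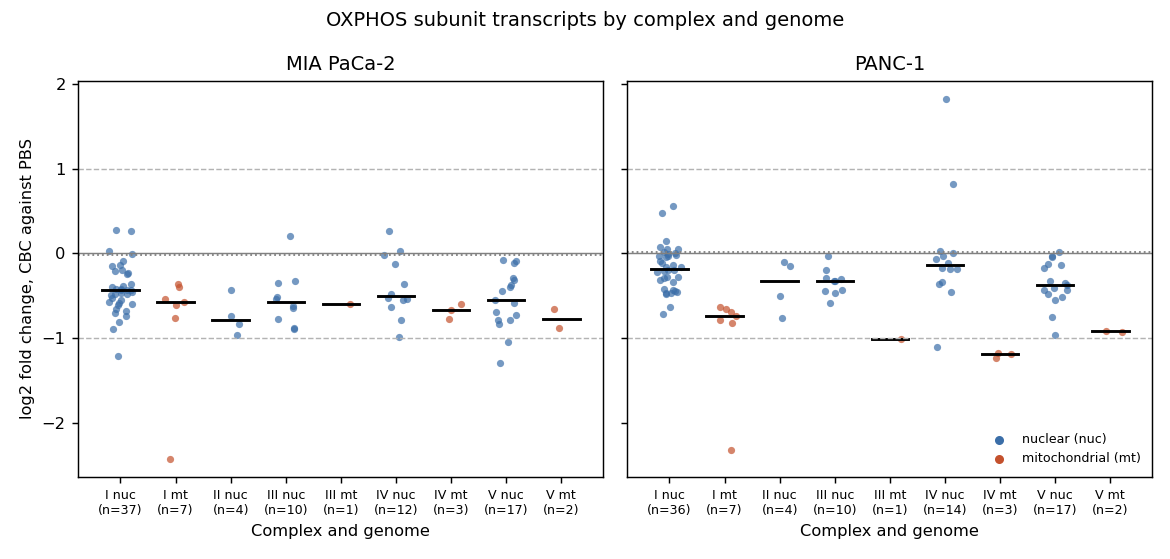
Log2 fold change of CBC against PBS (vertical axis) for each tested member by complex and genome (horizontal axis), in MIA PaCa-2 on the left and PANC-1 on the right; points are genes, black bars are medians, the dotted line is the median of all tested genes and the dashed lines mark 1 and -1. In MIA PaCa-2 the nuclear and mitochondrial medians of complex I lie at -0.44 and -0.58, and in PANC-1 those of complex IV lie at -0.14 and -1.19.

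The plot by complex and genome shows the same order in each complex that has subunits of both kinds. The mitochondrial minus the nuclear median in MIA PaCa-2 was -0.14 for complex I, -0.02 for complex III, -0.17 for complex IV and -0.22 for complex V. In PANC-1 these differences were -0.56, -0.69, -1.05 and -0.55. Complex IV had the largest difference in PANC-1, also for summed CPM (-1.12). In MIA PaCa-2 complex III, with 1 mitochondrial gene, had the smallest difference of medians, but for summed CPM complex V had (-0.04, beside -0.08 for complex III). No interval is given for these differences, since genes are not replicates.

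The same comparison can be made within a library, where no scaling between libraries enters. Counts of the 13 mitochondrial members made up 81.4% of all member counts in MIA PaCa-2 with PBS (Clopper-Pearson interval 81.3% to 81.5%) and 80.4% with CBC (80.3% to 80.5%). In PANC-1 they made up 78.4% with PBS (78.4% to 78.5%) and 69.5% with CBC (69.4% to 69.6%). The share was therefore lower in the treated library of each line, by far more in PANC-1, and each gap exceeded the counting error.

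By complex, the mitochondrial share in PANC-1 went from 85.6% to 80.1% for complex I and from 70.0% to 59.9% for complex III. For complex IV it went from 88.8% to 78.5%, and for complex V from 43.3% to 34.5%. In MIA PaCa-2 the same shares went from 87.3% to 86.2%, from 68.0% to 66.8%, from 91.2% to 89.4% and from 51.2% to 50.6%. The widest of these intervals, for complex III in treated PANC-1, ran from 59.5% to 60.3%. All 4 complexes shifted the same way in both lines, although 2 libraries against 2 are too few for an exact test to reach the threshold.

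**Figure D2:**
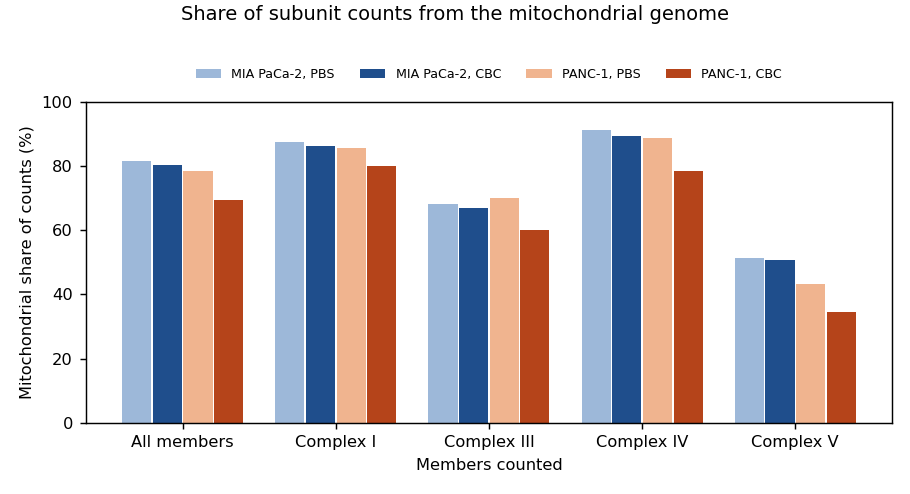
Share of subunit counts that came from the mitochondrial genome (vertical axis, percent from 0 to 100), for all members and for each complex of mixed origin (horizontal axis), with 1 bar per library. The PANC-1 bars go from 78.4% to 69.5% over all members, while the MIA PaCa-2 bars stand at 81.4% and 80.4%.

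As shares of all counts on genes, the mitochondrial members took 3.65% in MIA PaCa-2 with PBS and 2.50% with CBC, and 2.81% and 1.53% in PANC-1. The nuclear members took 0.832% and 0.610% in MIA PaCa-2 and 0.773% and 0.671% in PANC-1. Other features of RNA composition moved with treatment in the same libraries. The 2 mitochondrial rRNA genes, which poly(A) selection recovers only in part, went from 2.16% to 1.35% of counts in MIA PaCa-2 and from 1.81% to 0.887% in PANC-1, and both fell over the lines. The 2 nuclear-retained long RNAs MALAT1 and NEAT1 rose, MALAT1 from 3088 to 5629 CPM in MIA PaCa-2 and from 3567 to 6233 CPM in PANC-1 (edgeR adjusted p = 0.0213). Their part in the subunit values was not tested. In bulk libraries, fewer cells of a kind and less RNA per cell cannot be told apart.

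Markers of the epithelial lineage were checked against the labels. KRT8, KRT18 and KRT19, keratins of ductal epithelium, were at 161 to 1801 CPM in all 4 libraries, with lower values in each treated library than in its control. KRT7, a further ductal keratin, was at 2 counts with PBS and 52 with CBC in MIA PaCa-2 and at 49 and 58 in PANC-1. The epithelial adhesion genes EPCAM and CDH1 were at 0 or 1 counts in MIA PaCa-2, and in PANC-1 EPCAM went from 264 to 250 counts and CDH1 from 32 to 131. Of 8 markers of leukocytes, endothelium, fibroblasts, acinar and endocrine cells, PTPRC, CD3E, PECAM1, CPA1 and INS were at 0 in all 4 libraries and PRSS1 and CHGA at 2 counts or fewer. Their summed level was 0.495 and 0.606 CPM in MIA PaCa-2 and 133.6 and 46.4 CPM in PANC-1, nearly all of it the collagen gene COL1A1. The part of these markers in the subunit values was not tested.

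The 13 mitochondrial members lie on 16569 bases of GRCh38 chromosome M, 12 of them copied from the heavy strand and MT-ND6 from the light strand. Neighbours share bases or touch, so counts near a border depend on how the counting resolved them. The 3 stretches printed here, written 5′ to 3′ on the reference strand, are shown because they hold the borders of the genes that changed most or that overlap. In the first, capitals mark the stop codon of MT-ND5 and, next to it, the complement of the stop codon of MT-ND6, which is read from the other strand. In the second, capitals mark the start codon of MT-ATP6 and the stop codon of MT-ATP8. In the third, capitals mark the bases shared by MT-ND4L and MT-ND4.
MT-ND5 to MT-ND6, chrM:14119-14178: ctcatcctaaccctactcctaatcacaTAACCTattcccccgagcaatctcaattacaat
MT-ATP8 and MT-ATP6, chrM:8527-8572: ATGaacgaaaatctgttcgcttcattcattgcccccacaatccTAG
MT-ND4L and MT-ND4, chrM:10748-10778: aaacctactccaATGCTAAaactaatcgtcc
MT-ND5 and MT-ND6 thus meet end to end with no base between them, MT-ATP8 and MT-ATP6 share 46 bases, and MT-ND4L and MT-ND4 share 7.

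MT-ND6, a membrane subunit of complex I, had the largest decrease of any member in both lines. It went from 485 CPM to 90.7 CPM in MIA PaCa-2 and from 714 to 144 CPM in PANC-1. Both treated libraries lay below both controls. The log2 fold change was -2.42 in MIA PaCa-2 (counting interval -2.49 to -2.35) and -2.31 in PANC-1 (-2.36 to -2.26), and over both lines -2.36 with an SE of 0.19 (edgeR adjusted p = 0.0037). The 12 heavy-strand members spanned -0.88 to -0.35 in MIA PaCa-2 and -1.24 to -0.63 in PANC-1, so MT-ND6 lay outside their range in each line. It is the only member copied from the light strand, and its message is known to lack a stable poly(A) tail, while the libraries were poly(A)-selected. The library kit keeps the strand, but whether the counting used it is not given in the sources used here. Without strand, reads from the opposite transcript would be counted on MT-ND6. What these features contribute was not tested.

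**Figure D3:**
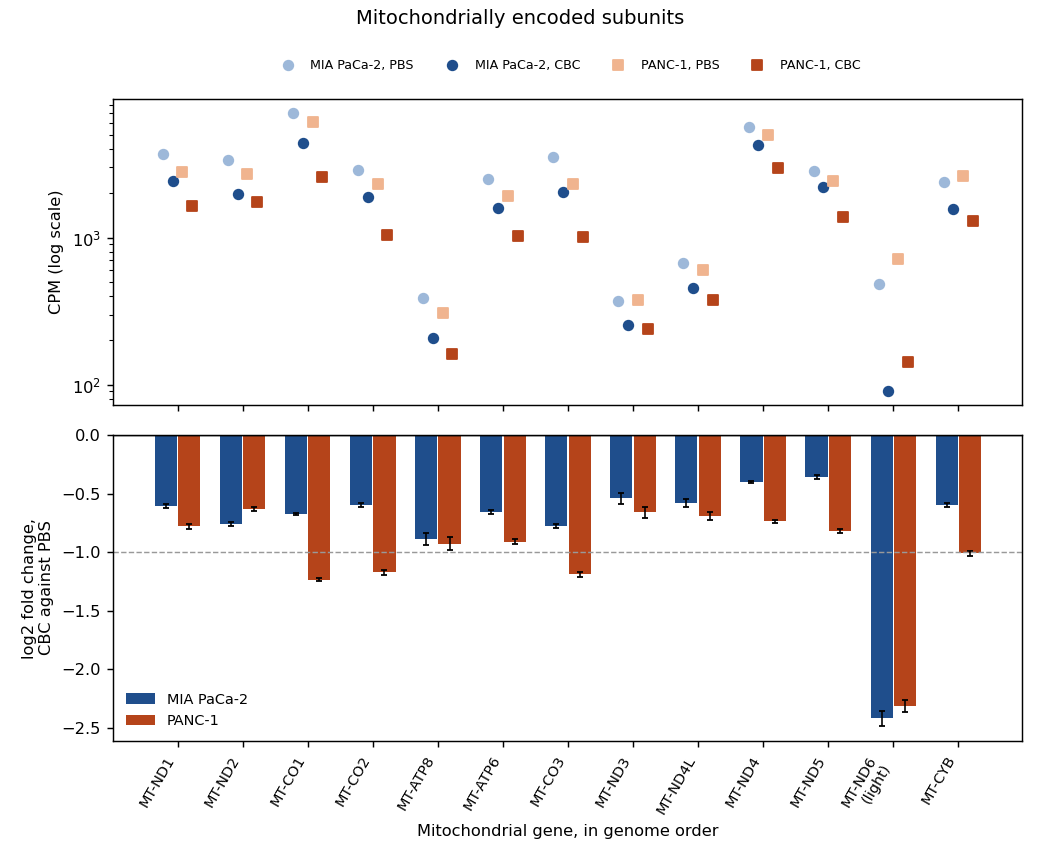
Mitochondrially encoded subunits in genome order (horizontal axis), with CPM in each library on a log axis above and, as bars, the log2 fold change of CBC against PBS in each line below; error bars are 95% counting intervals and the dashed line marks -1. MT-ND6, the only light-strand gene, stands at -2.42 and -2.31, and the heavy-strand genes lie between -0.35 and -1.24.

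Among the heavy-strand members the complex IV genes were lowest in PANC-1. MT-CO1, MT-CO2 and MT-CO3 encode the core of cytochrome c oxidase, with its heme and copper centres in the products of the first and the second. MT-CO1 went from 7006 CPM to 4399 CPM in MIA PaCa-2 and from 6099.5 to 2590.0 CPM in PANC-1. MT-CO2 went from 2863 to 1894 CPM and from 2331 to 1036 CPM. MT-CO3 went from 3506 to 2044 CPM and from 2315 to 1016 CPM. In all 3 genes the treated PANC-1 library was the lowest of the 4 and the untreated MIA PaCa-2 library the highest. The log2 fold changes were -0.67, -0.60 and -0.78 in MIA PaCa-2 and -1.24, -1.17 and -1.19 in PANC-1, and all 3 genes fell over both lines (edgeR adjusted p = 0.0292, 0.0427 and 0.0240).

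MT-CYB, the cytochrome b of complex III and its only mitochondrial subunit, went from 2372 CPM to 1569 CPM in MIA PaCa-2 and from 2604 to 1293 CPM in PANC-1. Its log2 fold change of -1.01 in PANC-1 (-1.03 to -0.99) sits on the threshold of the call. It fell by 0.80 on the log2 scale over both lines (SE 0.17, edgeR adjusted p = 0.0436).

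The ATP synthase genes MT-ATP6 and MT-ATP8, which encode subunits of its membrane part, are translated from a shared message. MT-ATP6 went from 2501 CPM to 1588 CPM in MIA PaCa-2 and from 1913 to 1018 CPM in PANC-1. MT-ATP8 went from 386 to 209 CPM and from 309.5 to 163 CPM. Both fell over the lines, at log2 fold changes of -0.78 for MT-ATP6 and -0.90 for MT-ATP8 (edgeR adjusted p = 0.0390 and 0.0370). Of the 207 bases of MT-ATP8, 46 are shared with MT-ATP6.

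The 6 heavy-strand subunits of complex I, all in the proton-pumping membrane arm, had the smallest decreases of the mitochondrial set in the fit over both lines. MT-ND1 and MT-ND2 fell over both lines, each with a log2 fold change of -0.69 (edgeR adjusted p = 0.0460 and 0.0435). MT-ND1 went from 3684 CPM to 2422 CPM in MIA PaCa-2 and from 2795 to 1629 CPM in PANC-1, and MT-ND2 from 3356 to 1983 CPM and from 2704 to 1749 CPM. MT-ND2 and MT-ND6 were the 2 mitochondrial members with the lower value in MIA PaCa-2.

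The calls of MT-ND1, MT-ND2, MT-CYB and MT-CO2 were lost under another scaling, which left 5 mitochondrial members called with DESeq2 size factors. The other 4 members of complex I on the heavy strand did not pass the test. MT-ND4 went from 5609.8 CPM to 4256 CPM in MIA PaCa-2 and from 4951 to 2978 CPM in PANC-1, and MT-ND4L, which shares its message, from 675 to 452 CPM and from 603 to 374 CPM. MT-ND5 went from 2828 to 2212 CPM and from 2416 to 1373 CPM, with log2 fold changes of -0.35 and -0.82. MT-ND3 went from 371 to 255 CPM and from 375 to 237 CPM. In each of these genes both treated libraries lay below both controls, and the edgeR adjusted p was 0.0888 for MT-ND4, 0.0883 for MT-ND4L, 0.110 for MT-ND5 and 0.117 for MT-ND3.

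Per kilobase of gene, the mitochondrial messages were far more abundant than the nuclear ones. Their levels, in CPM divided by exon length in kilobases (RPKM), were 3221 at the median in MIA PaCa-2 with PBS and 1903 with CBC, and 2595 and 1296 in PANC-1. The 76 nuclear members with a mean of at least 10 CPM had medians of 32.8 and 20.9 RPKM in MIA PaCa-2 and 35.6 and 30.2 RPKM in PANC-1. The nuclear lengths used here join the exons of every annotated transcript, which lowers their values. MT-ND6 went from 924 to 173 RPKM in MIA PaCa-2 and from 1360.1 to 274 RPKM in PANC-1. In the controls it was the lowest mitochondrial member in MIA PaCa-2, but in PANC-1 MT-ND3 and MT-ND5 were lower, at 1083 and 1333 RPKM. In both treated libraries MT-ND6 was the lowest of the 13.

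Among nuclear subunits, complex V held the member with the largest mean decrease. Its F1 head, which makes ATP, is built from the products of ATP5F1A to ATP5F1E, its membrane rotor from a ring of c subunits, and a peripheral stalk holds the parts together. All 17 nuclear members tested lay below 0 in MIA PaCa-2 and 16 of 17 in PANC-1, with medians of -0.55 and -0.37.

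The mature c subunit is the same protein whether it comes from ATP5MC1, ATP5MC2 or ATP5MC3, which differ in the targeting peptide that is removed on import. ATP5MC3 (chromosome 2, 175176258 to 175181710, minus strand) went from 223 CPM to 91.4 CPM in MIA PaCa-2 and from 147 to 75.1 CPM in PANC-1. ATP5MC1 went from 84.2 to 50.7 CPM and from 171 to 101 CPM. ATP5MC2 went from 63.7 to 48.5 CPM and from 206 to 201 CPM. Both treated libraries lay below both controls for ATP5MC3, the groups overlapped for the other 2 genes, and the PANC-1 libraries hardly differed for ATP5MC2.

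ATP5MC3 fell by 1.12 on the log2 scale over both lines (SE 0.21, edgeR adjusted p = 0.0283), with values of -1.29 (counting interval -1.36 to -1.22) and -0.97 (-1.05 to -0.89) in MIA PaCa-2 and PANC-1. ATP5MC1, at -0.73 and -0.75, had an edgeR adjusted p of 0.0900, and ATP5MC2, at -0.39 and -0.03, one of 0.627. Summed over the 3 genes, the c subunit messages went from 371 CPM to 191 CPM in MIA PaCa-2 and from 523 to 378 CPM in PANC-1. Whether the 3 genes differed from each other in response was not tested. Per kilobase, ATP5MC3 was the highest of the 3 in MIA PaCa-2, at 57.5 RPKM with PBS and 23.6 RPKM with CBC. In PANC-1 ATP5MC1 was the highest with PBS, at 65.3 RPKM, and ATP5MC2 with CBC, at 51.6 RPKM.

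ATP5F1A, the alpha subunit of the F1 head (chromosome 18, 46080248 to 46104334), went from 542 CPM to 262 CPM in MIA PaCa-2 and from 352 to 253 CPM in PANC-1. Its log2 fold change of -1.05 (-1.1 to -1.0) was called in MIA PaCa-2, and that of PANC-1 was -0.48. ATP5F1B, the catalytic beta subunit, which pairs with it in equal number, went from 661 to 451 CPM and from 895 to 666 CPM, at -0.55 and -0.43. At the other end ATP5F1D, the delta subunit of the central stalk, went from 101 to 95.2 CPM and from 61.9 to 60.2 CPM, at -0.09 and -0.04. The 5 genes of the head and central stalk had medians of -0.55 and -0.43, the 4 of the peripheral stalk -0.40 and -0.38, and the 5 small membrane subunits -0.58 and -0.33.

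**Figure D4:**
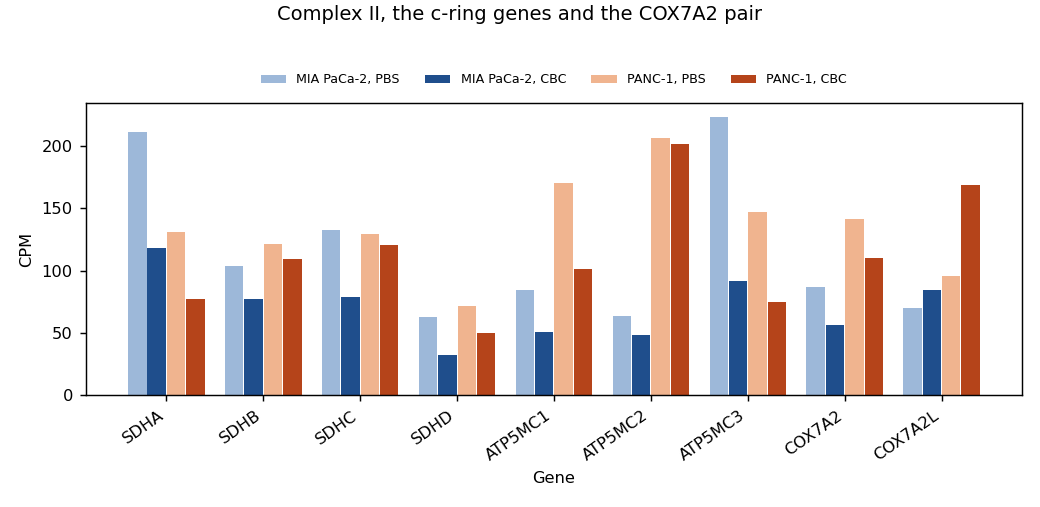
CPM (vertical axis, from 0) of the 4 complex II genes, the 3 c subunit genes and the pair COX7A2 and COX7A2L (horizontal axis), with 1 bar per library. ATP5MC3 goes from 223 to 91.4 CPM in MIA PaCa-2 and from 147 to 75.1 CPM in PANC-1, and COX7A2L is higher in both treated libraries, at 84.5 and 169 CPM.

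Complex II, the succinate dehydrogenase that also belongs to the citric acid cycle, is the complex with no mitochondrial gene. All 4 of its genes lay below 0 in both lines, with medians of -0.79 in MIA PaCa-2 and -0.32 in PANC-1, and in MIA PaCa-2 this was the lowest nuclear median of the 5 complexes. SDHA, the flavoprotein that oxidizes succinate, went from 211 CPM to 118 CPM in MIA PaCa-2 and from 131 to 77.3 CPM in PANC-1. SDHD, a membrane anchor, went from 63.1 to 32.5 CPM and from 71.4 to 50.4 CPM. For these genes both treated libraries lay below both controls.

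SDHB, the iron-sulfur subunit, went from 103 CPM to 76.9 CPM in MIA PaCa-2 and from 121 to 109.6 CPM in PANC-1. SDHC, the other anchor, went from 133 to 79.2 CPM and from 129 to 120.4 CPM, so the groups overlapped for SDHB and in PANC-1 SDHC hardly moved. No complex II gene passed the test over both lines. SDHA came nearest, at -0.84 (-0.90 to -0.77) and -0.76 (-0.85 to -0.68) with an edgeR adjusted p of 0.0663, and SDHD followed at -0.96 and -0.50 with 0.128. SDHA has processed copies elsewhere in the genome. Over all nuclear members, table entries named as their pseudogenes came to at most 2.03% of member counts in any library.

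Promoters from RefSeq (GRCh38.p14, 250 bases before the annotated start and 50 after) were found for 70 of the 90 nuclear members. The factor NRF1 and factors of the ETS family are known to drive many respiratory genes. The NRF1 core searched was GCGC and TGCGC with 1 base of any kind between them, and the ETS core was CCGGAAG, each on both strands. The NRF1 core was present in 17 of the 70 promoters, or 24.3%, against 9.75% of 15277 promoters of protein-coding genes, and the ETS core in 21, or 30%, against 16.7%. The median log2 fold change of members with either core was -0.43 for MIA PaCa-2 and -0.25 for PANC-1, and that of members with neither was -0.48 and -0.20. The 2 medians are in opposite order in the 2 lines, and the difference was not tested.

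The SDHA promoter holds 4 NRF1 cores, the first of them 166 bases before the start. It was picked after its values were seen, as an example from complex II. A stretch free of annotated exons, chr5:218154-218297 on the plus strand, is printed with the reverse complement of the core in capitals, while the last of the 4, which begins 19 bases before the start, lies outside it.
SDHA promoter: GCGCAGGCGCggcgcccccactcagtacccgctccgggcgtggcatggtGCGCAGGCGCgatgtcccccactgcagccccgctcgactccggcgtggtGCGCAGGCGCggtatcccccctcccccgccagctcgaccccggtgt

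Complex III had 10 nuclear members tested, with medians of -0.57 in MIA PaCa-2 and -0.32 in PANC-1. In MIA PaCa-2, 9 of 10 lay below 0 and in PANC-1 all 10. UQCRFS1, the Rieske iron-sulfur protein that takes electrons from ubiquinol, went from 127 CPM to 74.0 CPM in MIA PaCa-2 and from 143 to 95.2 CPM in PANC-1, and it had the lowest mean change of the complex among members above 10 CPM. CYC1, the cytochrome c1 that hands the electrons on, was at -0.52 and -0.44. UQCR11, a small accessory subunit, was the exception, at 0.21 (0.06 to 0.35) in MIA PaCa-2 and -0.03 (-0.22 to 0.16) in PANC-1, where its sign turned with the scaling. UQCRH, the hinge subunit, was at -0.53 and -0.30, and its near-copy UQCRHL, with 84 to 282 counts, at -0.89 and -0.46. Reads of these 2 genes can be hard to assign, so their split is uncertain.

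Complex I had the most members and the smallest nuclear changes beside complex IV. Of 37 nuclear members tested in MIA PaCa-2 34 lay below 0, with a median of -0.44, and of 36 in PANC-1, 28 did, with a median of -0.18. The 7 nuclear core subunits, which between them carry the flavin and the iron-sulfur clusters, had medians of -0.24 and -0.04. The accessory subunits had medians of -0.47 over 30 genes and -0.20 over 29. The mitochondrial core subunits of the membrane arm, at -0.58 and -0.73, thus had a lower median than the nuclear core subunits of the matrix arm in each line. In MIA PaCa-2 the sets overlapped, with MT-ND5 at -0.35 and MT-ND4 at -0.40 beside NDUFS3 at -0.52. In PANC-1 they did not, with the highest mitochondrial value at -0.63 and the lowest nuclear core value at -0.47.

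NDUFB3, an accessory subunit of the membrane arm (chromosome 2, 201071433 to 201085750), went from 42.0 CPM to 18.2 CPM in MIA PaCa-2 and from 53.0 to 32.3 CPM in PANC-1. It was called in MIA PaCa-2 at -1.20 (-1.37 to -1.04), and with -0.71 in PANC-1 it had an edgeR adjusted p of 0.0785. NDUFB9 lay at the other end among members above 10 CPM, at 107 and 107 CPM in MIA PaCa-2 and at 104 and 97.8 CPM in PANC-1. NDUFA13, NDUFV2 and NDUFA7 had at most 181 counts in any library, although the complex needs their products, and NDUFA13 and NDUFV2 lay above 0 in both lines with wide intervals. Their exons overlap those of other annotated genes on the same strand over 21.0% (NDUFA13), 28.4% (NDUFV2) and 32.5% (NDUFA7) of their length, and reads in such bases cannot be assigned to 1 gene with certainty. Overlap of this size also occurs in members with more counts, such as COX8A, at 35.4% with 999 to 1452 counts. The part of the overlap in the low counts was not tested.

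NDUFC1, a further accessory subunit, was the only member whose counting intervals lay on opposite sides of 0 in the 2 lines. It went from 35.2 CPM to 25.6 CPM in MIA PaCa-2, at -0.46 (-0.61 to -0.31), and from 37.6 to 41.7 CPM in PANC-1, at 0.15 (0.02 to 0.28).

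Complex IV shows the widest gap between its genomes in PANC-1. Its nuclear medians were -0.50 over 12 genes in MIA PaCa-2 and -0.14 over 14 genes in PANC-1. The 11 accessory subunits in general use ranged from COX7B, a small subunit of the membrane part, at -0.99 and -0.33, to COX5B, at -0.02 and 0.00. COX7B went from 111 CPM to 55.6 CPM in MIA PaCa-2 and from 120.3 to 95.4 CPM in PANC-1. COX4I1, the largest nuclear subunit, went from 235 to 216 CPM and from 161 to 157 CPM, and COX5B from 119 to 117 CPM and from 85.2 to 85.4 CPM. COX4I1 and COX5B therefore stood almost level, while COX7B was further down than MT-CO1 to MT-CO3 in MIA PaCa-2. The sign of COX5B turned with the scaling in both lines, and that of COX4I1 only in PANC-1. In MIA PaCa-2 COX4I1 was at -0.12, with a counting interval of -0.18 to -0.06.

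COX7A2L was the clearest member in the other direction. It encodes a relative of the COX7A subunits that is known to join complexes III and IV into supercomplexes. It went from 70.3 CPM to 84.5 CPM in MIA PaCa-2 and from 95.7 to 169 CPM in PANC-1, and the groups overlapped. The log2 fold changes were 0.26 (0.17 to 0.36) and 0.82 (0.74 to 0.89), and over both lines 0.55 with an SE of 0.22 (edgeR adjusted p = 0.212). Its relative COX7A2, a subunit proper, went from 87.0 to 56.1 CPM and from 141 to 110.2 CPM, at -0.63 and -0.36. Per kilobase COX7A2 stayed above COX7A2L in every library, but the levels drew nearer. They stood at 73.5 and 17.1 RPKM in PANC-1 with PBS and at 57.3 and 30.1 RPKM with CBC.

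Several tissue-restricted isoforms had no or almost no counts. COX4I2, COX7A1 and COX7B2 had 0 counts in all 4 libraries, which allows up to 0.110 to 0.135 CPM by counting error alone. COX6A2 and COX8C had at most 2 counts and ATP5MGL, a near-copy of ATP5MG, at most 7. The readthrough locus NDUFC2-KCTD14 was listed at 0 and ATP5MF-PTCD1 at 2 counts or fewer. Of their exon bases 99.6% and 87.9% are shared with another gene on the same strand, so gene counts can hardly show their level. ATP5MG itself was at -0.58 and -0.37, COX8A at -0.54 and -0.11, and COX6A1 at 0.03 and -0.07. The 8 members with at most 7 counts in every library entered no test.

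COX6B2, an isoform known from testis, had 0 and 1 counts in MIA PaCa-2 and went from 177 to 98 counts in PANC-1, at -1.10 (-1.49 to -0.75). The general form COX6B1 was at -0.78 and -0.46, from 157 to 91.5 CPM and from 169.6 to 123 CPM. NDUFA4L2, a hypoxia-responsive relative of NDUFA4, had 18 and 11 counts in MIA PaCa-2 and went from 26 to 116 counts in PANC-1, at 1.82 (1.27 to 2.57), the only member called higher in either line. NDUFA4, assigned to complex IV here, was at -0.52 and -0.18. These isoforms lay at or under 7.78 CPM in every library, and neither passed the test over both lines.

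**Figure D5:**
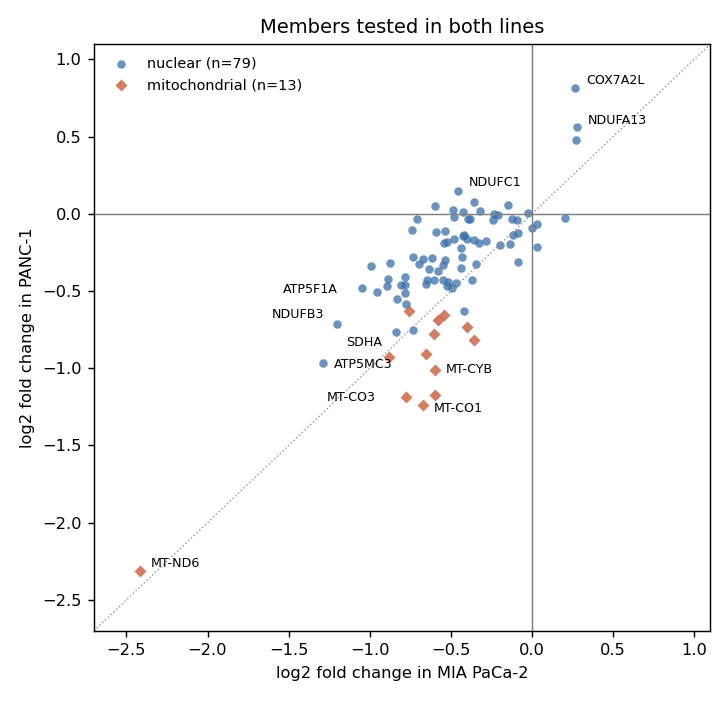
Log2 fold change in PANC-1 (vertical axis) against that in MIA PaCa-2 (horizontal axis) for the 92 members tested in both lines; circles are nuclear and diamonds mitochondrial genes, and the dotted line marks equal values. Most nuclear genes, 67 of 79, lie above the line of equal values and 11 of 13 mitochondrial genes below it.

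In the plot of line against line, 77 of the 92 members tested in both lines lay below 0 in both, and 3 lay above 0 in both. Those 3 were COX7A2L, NDUFA13 and NDUFV2. The median difference of PANC-1 minus MIA PaCa-2 was 0.24 for nuclear and -0.25 for mitochondrial members. Both lines were scaled together but share no library, so each has its own control.

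A soluble carrier of the chain and an inhibitor of the synthase lie outside the complexes. CYCS, cytochrome c itself, went from 352 CPM to 363 CPM in MIA PaCa-2 and from 415 to 322 CPM in PANC-1, at 0.04 and -0.36. ATP5IF1, the inhibitor that blocks reverse action of the ATP synthase, went from 79.3 to 45.2 CPM and from 65.4 to 53.9 CPM, at -0.81 and -0.28. Neither passed the test over both lines.

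Assembly factors build the complexes without being part of them. Of 52 on the list, 51 were tested, with medians of -0.24 in MIA PaCa-2 and -0.07 in PANC-1, so they lay nearer to the median of all genes than the nuclear subunits did. In MIA PaCa-2, 3 were called lower and 0 higher, where 8.97% and 11.5% of all tested genes were. In PANC-1, 0 were called lower and 1 higher, where 7.03% and 7.71% of all tested genes were. Over both lines 0 passed edgeR's test, which called 4.71% of all genes. In that test 4 had an unadjusted p under 0.05, where 20.9% of all genes did. COX19, a copper-handling factor of complex IV, went from 26.0 to 48.1 CPM and from 17.5 to 38.4 CPM, and it was the one called higher, at 1.13 in PANC-1. DMAC1, a factor of the membrane arm of complex I, was at -0.89 and -0.87, and NUBPL, which delivers iron-sulfur clusters to complex I, at -1.77 in MIA PaCa-2 and 0.11 in PANC-1.

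The genes that copy, process and stabilize mitochondrial RNA are nuclear as well. All 21 on the list were tested, with medians of -0.22 in MIA PaCa-2 and -0.30 in PANC-1. In MIA PaCa-2, 1 was called lower, where 8.97% of all tested genes were, and in PANC-1, 0, where 7.03% were. Over both lines 0 passed edgeR's test, which called 4.71% of all genes. In that test 2 had an unadjusted p under 0.05, beside the 20.9% of all genes. TFAM, which packs mitochondrial DNA and helps start its transcription, went from 112 to 64.9 CPM and from 117 to 73.1 CPM, at -0.78 and -0.68 (edgeR adjusted p = 0.0944). PRORP, the nuclease subunit that cuts tRNA 5′ ends out of the precursors, was at -1.18 and -0.30. SUPV3L1, a helicase of the mitochondrial RNA degradation machinery, was at 0.93 and 0.18.

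Of 9 regulators of mitochondrial biogenesis 8 were tested, with medians of -0.15 and -0.14. PPARGC1B, a coactivator of respiratory genes, was called lower in MIA PaCa-2 at -1.03, and MYC was called higher there at 1.22, against -0.45 and -0.07 in PANC-1. Of all genes tested in MIA PaCa-2, 8.97% were called lower and 11.5% higher. PPARGC1A had at most 6 counts in any library. None of the 8 passed edgeR's test over both lines, and 0 had an unadjusted p under 0.05, beside the same 20.9%.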

How the data were processed

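RNA was measured in 4 libraries, 1 per line and treatment, after poly(A) selection with a strand-keeping kit. The deposited counts per gene come from HTSeq, after trimming by cutadapt 2.7 (submitters' processing notes) and STAR alignment to GRCh38 by the authors. The STAR version and the strand setting are not given in the sources used here. A second set of values, a normalized signal (TMM-scaled CPM from edgeR) that the authors deposited beside the counts, served as an alternative. The files' symbols and positions were matched to GENCODE 44 for 57392 of 58233 identifiers.

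From the counts, log2 fold changes were computed with edgeR 4.0.16 (R 4.3.3), with TMM factors over the 4 libraries and a prior count of 2. Genes with at least 1 CPM in either library of a line entered the comparison within it. Intervals are exact Clopper-Pearson intervals at 95%, computed in R for log2 fold changes and with scipy 1.17.1 for shares of counts. They cover counting error only, since they hold no spread between cultures or libraries. PCR reads are not independent molecules, so the intervals can be too narrow even for counting error. Over both lines, edgeR's quasi-likelihood test took genes kept by filterByExpr, with Benjamini-Hochberg adjustment over 16381 genes and the cell line as a block. The pairing comes from the cell lines, each with its own control, and deviations of paired libraries from their group means correlated at r = 0.92. No source says that cultures were replicated, so p-values rest on the spread between 2 lines. With 1 residual degree of freedom, edgeR draws each gene's variance toward a value estimated over many genes. An SE or p-value is therefore not a measure of that gene's own spread. NDUFS6, at -0.49 in MIA PaCa-2 and -0.48 in PANC-1, had an SE of 0.21. MT-CO1, at -0.67 and -1.24, had one of 0.18. DESeq2 1.42.0, other scalings and filters and the model with no block were alternatives. The test over both lines was run on simulated counts in which 200 genes changed 4-fold, alike in both lines. Smaller changes, and changes that differ between the lines, were not simulated, so its behaviour for them is not known. Tables and plots used python 3.11.15, pandas 2.3.3 and matplotlib 3.10.9.

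The members and lists were chosen with earlier results of these data known. Genes named are the mitochondrial members, members called, the members with the lowest and highest mean change of each complex above 10 CPM, all of complex II, isoform pairs, readthrough loci, CYCS and ATP5IF1, and up to 3 genes of each other list by mean change. ATP5F1B, CYC1, COX5B, NDUFC1, NDUFA13, NDUFV2, NDUFA7 and the SDHA promoter were chosen after their values were seen. The lists are assembly factors, genes of mitochondrial RNA, regulators of biogenesis, rRNA, nuclear-retained RNA and cell type markers.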

Additional observations from a re-analysis of the deposited data

Results flagged for a closer look

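NDUFC1, an accessory subunit of complex I, drew attention because its log2 fold changes had opposite signs in the 2 lines, each with a counting interval on its own side of 0. The difference of PANC-1 minus MIA PaCa-2 was 0.606, and it was the only such member among the 92 compared in both lines. With 1 library per condition this difference was not tested. Of its exon bases 12% are shared with MGARP on the same strand and 19.5% with NAA15 on the opposite strand, and their part in the difference was not tested.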

How the results depend on the processing

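No called value changed sign under an alternative. Among the 95 members tested, 17 nuclear and 0 mitochondrial ones turned sign under another scaling in a line or over both lines, all from values of at most 0.0654 in size. Scaling by library totals turned 2 of them in MIA PaCa-2 (COX5B and NDUFB9) and 10 in PANC-1 (among them ATP5F1D, ATP5MC2, COX4I1, COX6A1 and UQCR11). It left 72 of 80 and 58 of 81 nuclear members below 0, beside 46.9% and 43.1% of all genes. With a threshold of 0.5 on the log2 scale, 38 nuclear and 11 mitochondrial members were called in MIA PaCa-2 and 13 nuclear and 13 mitochondrial members in PANC-1, beside 48.2% and 39.0% of all genes tested. These shares of all genes count both directions, while all the members called were lower except 3 of the nuclear members in PANC-1. In MIA PaCa-2, 47.5% of nuclear and 84.6% of mitochondrial members were called lower, beside 23.3% of all genes. In PANC-1, 12.3% of nuclear and 100% of mitochondrial members were called lower, beside 18.3% of all genes. The share called higher there was 3.70% of nuclear members, beside 20.7% of all genes. The 2 nuclear calls in PANC-1 became 1 with a minimum of 5 CPM, with the counting interval required to pass 1, and with the deposited normalized values. Over both lines the nuclear count was 5 with no filter and 7 with DESeq2's Wald test. The mitochondrial count was 13 with no filter, 11 with the Wald test, 6 with library totals and 5 with DESeq2 size factors in edgeR. With no filter 28834 genes were tested and with the Wald test 13492. The shares of all genes called under these settings were not computed, so the counts have no background beside them. The analysis was paired by cell line. With no cell line block, edgeR called 0 nuclear and 0 mitochondrial members, and 0 of all genes, with 354 genes and 1 mitochondrial member at an unadjusted p under 0.05. Leaving out a line leaves no residual degree of freedom, so it gives the values within the other line and no test.

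The mitochondrial share of member counts depended on length. Per kilobase of exon it was 91.4% and 90.5% in MIA PaCa-2 with PBS and CBC, and 89.4% and 84.1% in PANC-1. Without MT-ND6 it was 81.2% in MIA PaCa-2 with PBS, and 78.0% and 69.3% in PANC-1 with PBS and CBC. With pseudogene entries added it was 80.2% in treated MIA PaCa-2. Scaling by library totals took the call from ATP5F1A in MIA PaCa-2, at -0.98, and from MT-CYB in PANC-1, at -0.94, and in the test over both lines from MT-CYB, MT-ND1 and MT-ND2. Other scalings moved the nuclear median between -0.50 and -0.42 in MIA PaCa-2 and between -0.24 and -0.14 in PANC-1. The cause of these moves was not tested. The test over both lines rests on 2 lines given different doses, and the effect of depth was not tested.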
